A study of Bos taurus with 15 samples.

Results

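The genes examined are 9 genes of thymocytes, the T-cell precursors of the thymus, or of the signals around them: DNTT, RAG1, RAG2, CD3D, CD3E, CD3G, CD8A, LCK and CCL25. The set was chosen by the measured levels, because the probe of DNTT leads the second principal component of the arrays, so the levels across animals are given as a description and only the comparison of the treatment groups is tested. Of the 9 genes, 8 had a probe among the 15414 genes that could be named on the array, each with 1 probe printed as 2 spots. No probe carried the name of RAG2, and it is not analysed here.

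Total RNA of bovine biceps brachii muscle, taken at slaughter, was hybridised to 1-colour Agilent arrays, 1 array per animal. The 8 treated animals (P25 to P32) had received the synthetic glucocorticoid prednisolone by mouth, 30 mg per head each day, for 35 days. The 7 others (C17, C18 and C20 to C24) are labelled as controls. The treatment text of the controls names Finaplix, Revalor, and a combination of Revalor and dexamethasone, but the label of every one of these animals reads CONTROL, and the text ties no agent to any of them. Extraction differed as well, with an RNeasy Mini kit for controls and TRIzol followed by an RNeasy MinElute cleanup for treated animals, so treatment and extraction cannot be told apart.

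Thymocytes build their antigen receptor by cutting and rejoining gene segments. The RAG proteins make the cuts and terminal transferase, the product of DNTT, adds bases at the joints. The CD3 chains carry the receptor's signal into the cell, CD8A is part of the co-receptor that binds class I molecules, and LCK is the kinase bound to the co-receptor. CCL25 is a chemokine of thymic and intestinal epithelium that attracts precursors carrying its receptor CCR9. Glucocorticoids are known to kill immature thymocytes, while adult skeletal muscle is not known to make terminal transferase or RAG proteins.

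The muscle transcripts of myoglobin and skeletal actin were bright on all 15 arrays. Not every muscle gene was, with CASQ1 between 1.05 and 5.58 log2 intensity. Myoglobin (MB), the oxygen store of muscle fibres, lay between 18.46 and 18.92 log2 intensity, and skeletal actin (ACTA1) between 17.28 and 17.94. Between 72.1% and 87.4% of the spots on an array had a value, with the lowest share on C17. That array stood apart in the thymocyte genes too, so group differences of the thymocyte genes and correlations with DNTT are given without it too. The scanner software's flags were used for the 8 treated arrays alone, which had 64.4% to 71.8% of probes well above background. Levels below are log2 intensities after each array was shifted to a common 75th percentile, and they are compared between animals for 1 probe, never between probes.

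DNTT (probe A_73_100082) spanned the whole range from background to a bright signal. In controls it measured 13.77 on C17, 10.12 on C20, 6.67 on C22, 6.54 on C21, 5.83 on C23, 5.00 on C18 and 2.22 on C24. In treated animals it measured 12.10 on P30, 11.31 on P32, 8.83 on P28, 6.02 on P31, 1.90 on P25, 1.74 on P29, 1.61 on P27 and 1.51 on P26. High and low animals occurred in both groups and the groups overlapped.

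In the order of the animals for DNTT, the level fell by 2.16 from P28 to C22. The widest step was 2.78, from C18 to C24. C22 and C21 were only 0.13 apart, no more than the median difference of 0.13 between the paired spots on an array. DNTT was flagged well above background on 4 of 8 treated arrays, P28, P30, P31 and P32, and not on P25, P26, P27 and P29, whose values have no order. The lowest signal flagged well above background on a treated array was between 2.43 and 2.84, which is above the DNTT value of control C24. On C17 the signal was 215.3-fold that of the median animal.

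RAG1 (probe A_73_106358), the partner of RAG2 and its neighbour in the RefSeq annotation, stayed near background. It had a value on 5 control arrays, with 3.61 on C17, 3.23 on C20, 1.68 on C21, 1.67 on C22 and 1.62 on C23. Of the treated arrays 4 had a value, from 1.73 to 2.43, and the probe was well above background on 0 of 8. RAG1 is therefore given no fold.

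The CD3 chains, which are encoded by 3 consecutive genes in the order CD3E, CD3D and CD3G in the RefSeq table, followed the same animals. CD3E (probe A_73_104727) measured 11.34 on C17, 8.82 on C20, 7.18 on C18, 6.66 on C22, 6.27 on C21, 6.24 on C23 and 5.66 on C24. In treated animals CD3E measured 10.00 on P30, 9.57 on P32, 8.02 on P28, 6.86 on P27, 6.36 on P25, 6.07 on P29, 6.05 on P31 and 5.26 on P26. The 5 animals highest for DNTT were the 5 highest for CD3E.

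CD3G (probe A_73_111056) measured 11.02 on C17, 7.67 on C20 and between 5.20 and 6.45 on the other control arrays. In treated animals it measured 9.63 on P30, 9.33 on P32, 7.46 on P28 and between 4.79 and 6.46 on the rest. The highest CD3G signal was 75.1-fold the lowest, and the highest CD3E signal 67.5-fold the lowest. Both probes were flagged well above background on all 8 treated arrays, where DNTT was on 4.

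CD3D (probe A_73_108396) had a value on 13 arrays and was well above background on 2 of 8 treated arrays. It measured 6.32 on C17, 5.63 on C22, 4.53 on C20 and between 2.48 and 3.18 on the other control arrays. In treated animals CD3D measured 5.48 on P30, 4.88 on P32 and between 1.48 and 2.66 on 4 others, with no value on P27 and P28. C22, which ranked 6 for DNTT, ranked next to C17 for CD3D.

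CD8A (probe A_73_101768) had the widest range among the thymocyte genes that were well above background on all treated arrays. It measured 11.93 on C17, 8.89 on C20, 7.05 on C23, 6.69 on C22, 6.53 on C21, 6.46 on C18 and 5.68 on C24. In treated animals it measured 10.53 on P30, 10.22 on P32, 8.20 on P28, 6.24 on P27, 6.19 on P26, 5.95 on P31, 5.58 on P25 and 5.42 on P29. The highest signal was 90.6-fold the lowest, and again C17, P30, P32, C20 and P28 were the 5 highest animals.

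LCK (probe A_73_116762), the kinase that starts receptor signalling, had a value on 13 arrays. It measured 6.95 on C17, 4.62 on C20 and between 3.53 and 4.46 on the other control arrays. In treated animals LCK measured 6.51 on P30, 6.19 on P32, 5.12 on P28 and between 3.97 and 4.40 on 3 others, with no value on P26 and P31. C17 was 5.85-fold above the median animal.

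CCL25 (probe A_73_113247), which is made by epithelium and not by T cells, was high in the same animals. It measured 9.85 on C17, 7.31 on C21, 7.26 on C20, 7.02 on C23, 6.35 on C18, 6.26 on C24 and 6.09 on C22. In treated animals it measured 9.25 on P30, 8.55 on P32, 7.40 on P28, 6.70 on P29, 6.63 on P25, 6.34 on P27, 6.28 on P31 and 6.18 on P26. C17, P30 and P32 stood clear of the rest, while C20, the animal with the next highest DNTT, lay within the range of the other controls. The probe of its receptor CCR9 measured 5.86 on C17 and 4.58 on P30, with a median of 2.19 over 14 arrays (r with DNTT 0.677, and 0.533 without C17), and was well above background on 2 of 8 treated arrays.

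**Figure D1:**
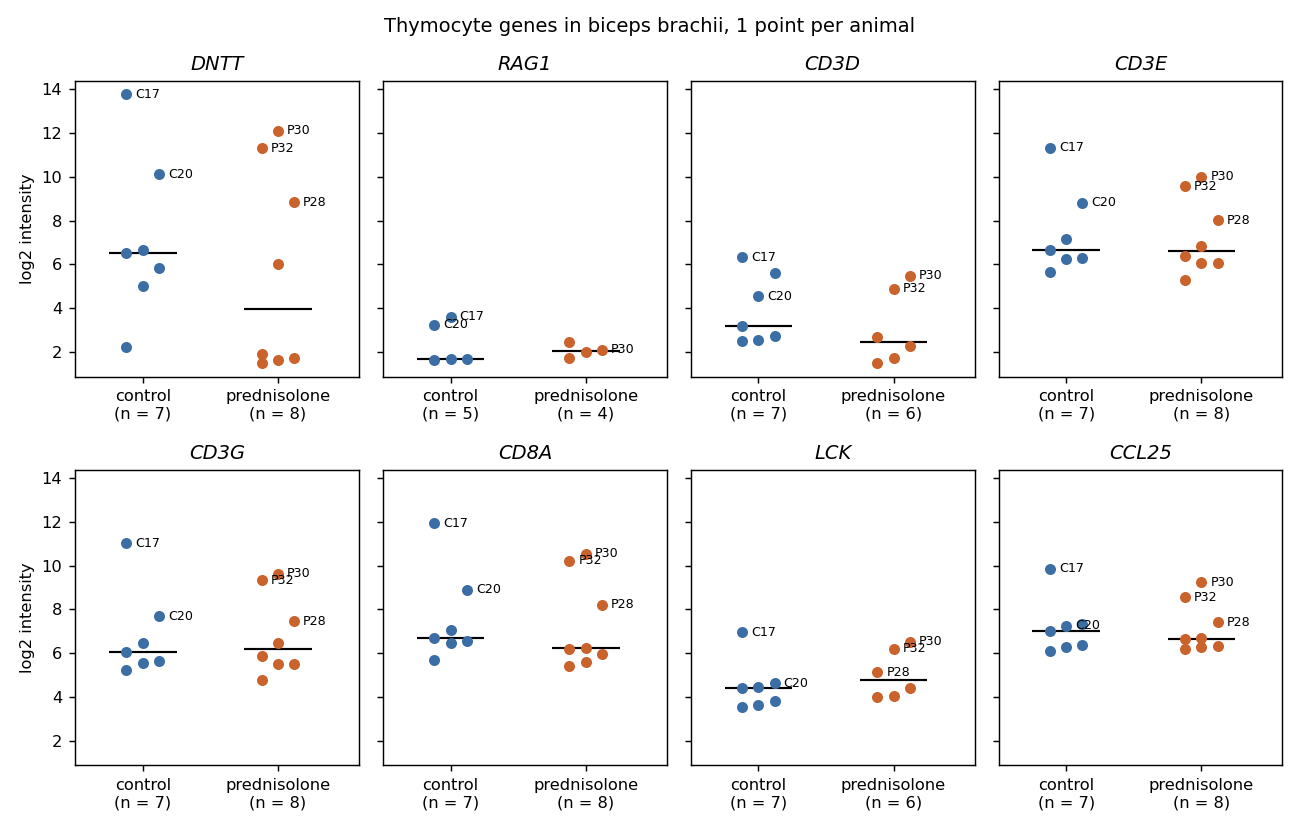
Log2 intensity of the 8 measured thymocyte genes in each animal, with control animals in blue and prednisolone animals in orange. Each point is 1 animal with a value, the n under each group counts them, and the black line is the group median. C17 was the highest animal in all 8 panels, and P30 and P32 led the treated animals except for RAG1.

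All 8 measured genes were highest on C17, where 12.5% of the 11190 named genes with a value on all arrays had their highest value. Of the 5 thymocyte genes with a value on all arrays, 4 had the same 5 highest animals as DNTT, DNTT itself included, against 0.411% of those named genes. DNTT was chosen for this pattern, so these counts are a description. P30 ranked next to C17 for 6 of the 8 genes.

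Arrays that lay on the same slide also differed. P29 and P30 shared a slide, and CD8A was 34.5-fold higher on P30 than on P29, CD3G 17.6-fold, CD3E 15.3-fold, CCL25 5.86-fold and LCK 5.48-fold. P27 and P28 shared another slide, and there CD8A was 3.89-fold, CD3E 2.23-fold and CCL25 2.08-fold higher on P28. DNTT is given no fold for these pairs, since it was not well above background on P29 and P27. The paired spots on an array differed by a median of 0.17 log2 for CD8A, 0.11 for CD3E, 0.067 for CD3G and 0.094 for CCL25, a spread that does not include that between arrays or samples. Which slides held the controls is not known here.

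The treatment groups were compared with limma (lmFit and eBayes) over all 20894 tested probes, with Benjamini-Hochberg adjustment. None of the 8 thymocyte genes passed an adjusted p of 0.05, and neither did any probe in the table (0 of 20894, 0%). At an unadjusted p under 0.05 limma called 0 of the 8 genes, where 3.35% of all probes were called. The exact Wilcoxon rank sum test also called 0 of the 8 at an unadjusted p under 0.05 (2.92% of all probes) and 0 probes after adjustment. The groups overlapped for all 8 genes, as they did for 99.7% of all tested probes.

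DNTT averaged 7.17 ± 3.74 (SD, n = 7) in the control group and 5.62 ± 4.58 (SD, n = 8) in the prednisolone group. The difference, treated minus control, was -1.54 (95% interval -5.86 to 2.78, limma adjusted p = 0.993), and it was -0.44 without C17 and -2.46 without P30. Of the 8 treated animals, 5 lay below the median of the controls. Its interval is so wide that changes of many fold in either direction lie inside it.

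CD8A averaged 7.60 ± 2.15 (SD, n = 7) in the control group and 7.29 ± 2.08 (SD, n = 8) in the prednisolone group, a difference of -0.31 (95% interval -2.48 to 1.86, limma adjusted p = 0.995). It turned to 0.41 without C17. CD3E averaged 7.45 ± 1.99 and 7.27 ± 1.74 in the same animals, a difference of -0.18 (-2.09 to 1.73), which turned to 0.47 without C17. CD3G averaged 6.79 ± 2.03 and 6.82 ± 1.82, a difference of 0.023 (-1.95 to 2.0), or 0.73 without C17 and -0.38 without P30. For these signalling and co-receptor genes the sign of the difference thus changed when a single animal was left out.

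CD3D averaged 3.91 ± 1.58 (SD, n = 7) in the control group and 3.08 ± 1.69 (SD, n = 6) in the prednisolone group, a difference of -0.84 (95% interval -2.65 to 0.97) with the lowest unadjusted limma p of the 8 genes, 0.336. Without C17 the difference was -0.44, and most treated values lay near background. LCK averaged 4.48 ± 1.17 (SD, n = 7) and 5.04 ± 1.1 (SD, n = 6), a difference of 0.56 (-0.71 to 1.82), or 0.97 without C17 and 0.26 without P30. The treated mean of LCK lacks P26 and P31, which had no value. With empty cells set at the 1st percentile, the LCK difference turned to -0.39. CCL25 averaged 7.16 ± 1.29 (SD, n = 7) and 7.17 ± 1.15 (SD, n = 8), a difference of 0.0053 (-1.25 to 1.26), or 0.45 without C17. RAG1 averaged 2.36 ± 0.97 (SD, n = 5) and 2.06 ± 0.29 (SD, n = 4), both near background, and its difference turned from -0.30 to 0.014 without C17. Limma adjusted p-values of all 8 genes lay between 0.993 and 0.999, and the median difference was -0.24, beside 0.01 over all named genes tested. In bulk muscle RNA, fewer cells of a type and less RNA per cell cannot be told apart.

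**Figure D2:**
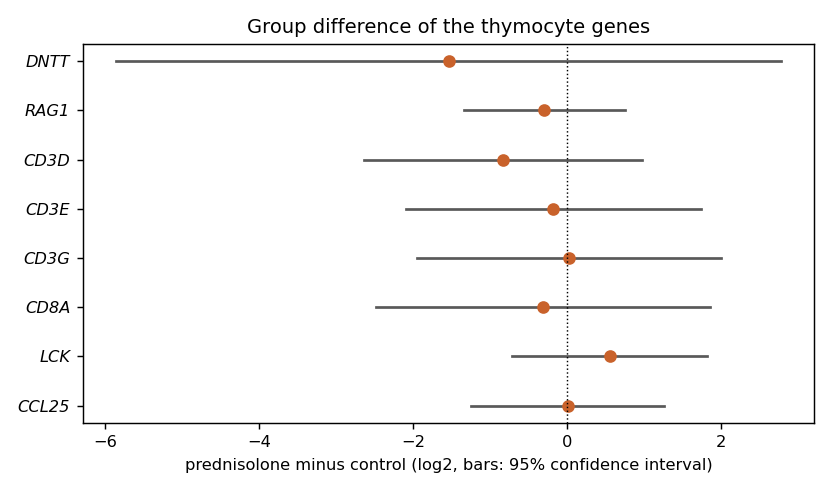
Difference between prednisolone and control animals in log2 intensity for each thymocyte gene, with bars for the 95% confidence interval of the limma fit. All 8 intervals cross the dotted line at 0, and that of DNTT is the widest, from -5.86 to 2.78.

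Apart from RAG1, which had too few values within a group, the other genes had a positive r with DNTT in each treatment group. The following correlations are across animals on log2 intensities, share the arrays and their scaling, and are a description with no test. They include the DNTT values of P25, P26, P27 and P29, not well above background, and of C24, also near background. Both r and rho take these low values as measured levels, and their part in each correlation was not tested. CD8A had a Pearson r of 0.933 with DNTT over 15 animals (Spearman rho 0.871), 0.916 without C17 and 0.891 without C17 and P30, the 2 animals farthest from the DNTT median. Its r was 0.959 within the 7 controls and 0.934 within the 8 treated animals. CD3E had an r of 0.90 (rho 0.775, and 0.869 without C17), CD3G of 0.863 (rho 0.743, and 0.816 without C17) and CCL25 of 0.853 (rho 0.718, and 0.802 without C17). Without C17 and P30 these fell to 0.824, 0.751 and 0.741.

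Probes with empty cells had fewer animals. CD3D had an r of 0.858 over 13 animals, 0.806 without C17 and 0.743 without the 2 farthest. LCK had an r of 0.841 over 13 animals, 0.78 without C17 and 0.697 without the 2 farthest. RAG1 had an r of 0.674 over 9 animals, and 0.45 without C17. Among the 5 genes with a value on every array, the 10 pairwise correlations lay between 0.853 and 0.988, the highest between CD3E and CD3G. Without C17 they lay between 0.802 and 0.981.

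**Figure D3:**
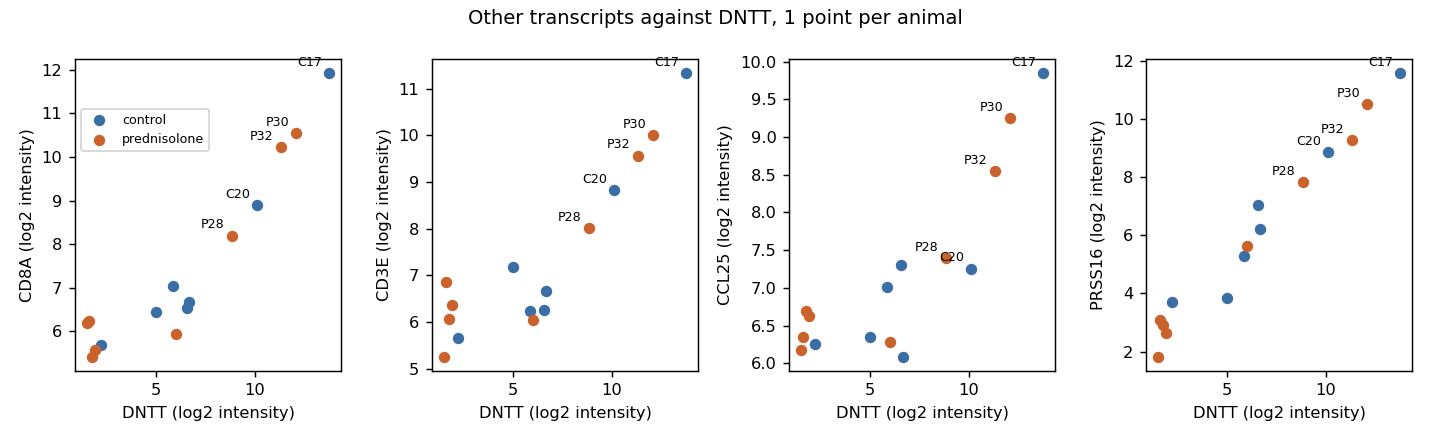
Log2 intensity of CD8A, CD3E, CCL25 and PRSS16 (vertical axes) against DNTT (horizontal axes), with control animals in blue, prednisolone animals in orange and 1 point per animal. C17, P30, P32, C20 and P28 form the upper right of the CD8A, CD3E and PRSS16 panels, while in the CCL25 panel C20 lies among the other animals.

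Across the 14323 other probes with a value on all arrays, 16 had a Pearson r above 0.9 with DNTT (0.112%), and among 11189 named genes there were 12 (0.107%), CD8A included. CD8A ranked 6 among the probes, CD3E 17, CD3G 28 and CCL25 34. The count above 0.9 rested on the brightest animals, since it was 7 without C17, 10 without P30 and 4 without both. It was 25 without C21.

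Among the named genes with a value on all arrays, the one most like DNTT was PRSS16, a serine protease of thymic cortical epithelium. PRSS16 had an r of 0.985 over 15 animals (0.98 without C17, 0.974 without C17 and P30). It measured 11.59 on C17, 10.51 on P30, 9.28 on P32, 8.87 on C20 and 7.83 on P28, with a median of 5.65 and a lowest value of 1.83 on P26. Its group difference was -1.19 (limma adjusted p = 0.993), and it was well above background on the same number of treated arrays as DNTT, 4 of 8.

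Next came transcription factors of T-cell development. BCL11B, which commits precursors to the T lineage, had an r of 0.958 and ran from 2.12 through a median of 4.96 to 11.09 on C17. LEF1 had an r of 0.951 and ran from 1.45 through 4.14 to 9.85. TCF7, its relative and an early factor of the lineage, had an r of 0.935 and ran from 5.07 through 6.47 to 11.92. All 3 were highest on C17 and shared DNTT's 5 highest animals.

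Further genes were the other co-receptor chain and signalling proteins. CD8B, the neighbour of CD8A in the annotation, had an r of 0.938 and ran from 5.63 through 7.14 to 12.73. ZAP70, the kinase that docks on the phosphorylated CD3 chains, had an r of 0.902 and ran from 5.11 through 5.98 to 11.07. The adaptor FYB1 had an r of 0.91, the phosphatase PTPN7 of 0.919 and the surface receptor SLAMF1 of 0.895. The remaining genes of the 12 most like DNTT, members of the chosen set left out, act in the cell cycle or in copying DNA methylation: CDC25B (r 0.91), UHRF1 (0.909) and CCNF (0.907). Of the 12, all were highest on C17 and 10 shared DNTT's 5 highest animals. The 12 were picked for a high r with DNTT on these same arrays, so these counts describe that choice and are no separate support. The r of the 12 lay between 0.865 and 0.98 without C17 and between 0.819 and 0.974 without C17 and P30.

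Receptor chains themselves were measured by probes that the array annotation describes as T-cell receptor constant regions or chains, looked at after their values were seen. The beta constant probe ran from 6.41 through a median of 7.97 to 13.90 on C17, with 12.39 on P30 and 12.16 on P32, and had an r of 0.927 with DNTT (0.905 without C17). The alpha constant probe reached 12.89 on C17 (r 0.88, 0.842 without C17), the gamma constant probe 9.23 (r 0.858, 0.809 without) and the delta probe 12.82 (r 0.851, 0.797 without). Chains of both kinds of T cell, alpha-beta and gamma-delta, were thus highest in the same animal.

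**Figure D4:**
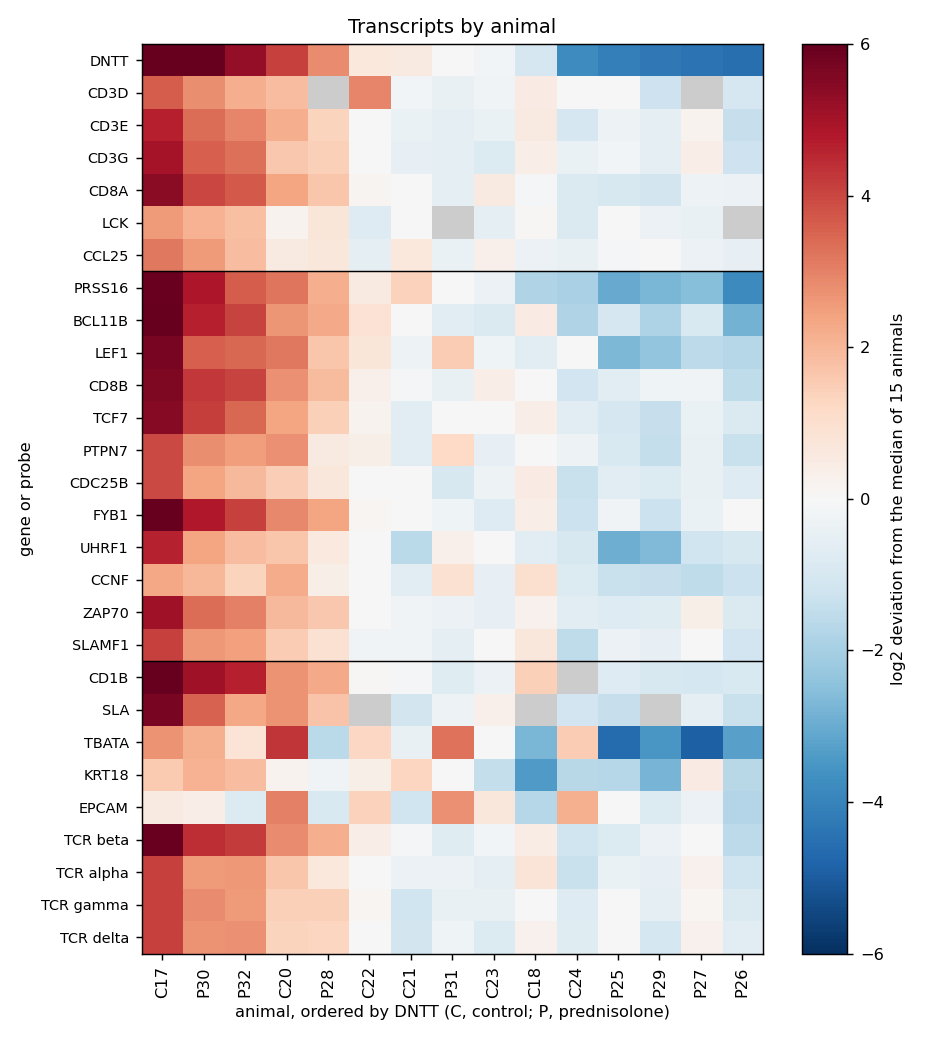
Deviation of each transcript's log2 intensity from its median over the animals with a value (colour, clipped at the ends of the scale), with animals ordered by DNTT from left to right and grey for no value. The upper block holds the thymocyte genes, the middle block the 12 other named genes most like DNTT, and the lower block the most variable genes of the thymocyte and thymic epithelium lists and the T-cell receptor probes. The left 5 columns are raised in most rows, while TBATA and EPCAM are highest on C20.

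A wider list of 46 thymocyte genes had 40 on the array and 39 tested. Limma called 0 of the 39 between treatment groups after adjustment, and 0 at an unadjusted p under 0.05, where 3.24% of named genes passed. The difference was positive for 15 and negative for 24, with a median of -0.15. Of the 27 with a value on all arrays, 20 were highest on C17 (12.5% of named genes) and 9 shared DNTT's 5 highest animals. Their median r with DNTT was 0.609, with a range from -0.45 to 0.958, and the median was 0.408 without C17.

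Several genes of this list, markers of immature thymocytes among them, were highest on C17 as well, while others were not. CD1B, a lipid-presenting molecule of cortical thymocytes, measured 8.51 on C17, 7.58 on P30, 7.12 on P32, 5.16 on C20 and 4.76 on P28, with a median of 2.47 over 14 animals (r 0.925, 0.899 without C17). PTCRA, which encodes the pre-T-cell receptor alpha chain, ran from 4.22 through 4.68 to 7.55 on C17, with 7.22 on P30 (r 0.738, 0.632 without C17). SLA, an adaptor that lowers receptor levels in thymocytes, reached 8.30 on C17 and had an r of 0.929 over 12 animals (0.921 without C17). MYB, a factor of dividing precursors, reached 7.73 on C17 from a median of 1.78 (r 0.86, 0.853 without C17), and was well above background on 2 of 8 treated arrays. CD247, the zeta chain of the receptor complex, ran from 8.18 through 8.96 to 12.92 (r 0.883, 0.847 without C17).

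Other listed genes had an r below 0 with DNTT. CD99 stayed between 10.17 and 11.12 (r -0.45, -0.37 without C17), and ADA, the adenosine deaminase that is abundant in thymus, between 10.67 and 12.68 with its highest value on C24 (r -0.39, -0.31 without C17). THEMIS was highest on P26 at 6.55 (r -0.19 over 10 animals), with no value on C17, P30 or P32. Of those with an r above 0, CD1E was highest on P30 at 10.61 (r 0.329, 0.148 without C17). CD7 (r 0.173, 0.247 without C17) and DTX1 (r 0.127, 0.36 without) were highest on C20, and DTX1 was lowest on C17. CD5, CD6, CD28, IL7R, GRAP2 and UBASH3A were well above background on 0 of 8 treated arrays. CD1A, CD4, LAT and TRAT1 were not found by name and are not analysed here. TRAC and TRBC1 were not found by symbol either and so are not in the list's counts, but the alpha and beta constant probes above were read by their descriptions.

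Genes of the thymic epithelium moved less as a group. The list of 23 had 22 genes on the array, all tested, with 0 called, 0 at an unadjusted p under 0.05 and a median difference of -0.036 (10 positive, 12 negative). Of 18 with a value on all arrays 2 were highest on C17, and the median r with DNTT was 0.147 (0.167 without C17). FOXN1, the master factor of thymic epithelium, stayed between 3.56 and 6.24, was highest on C24 and had an r of -0.41 (-0.59 without C17). PSMB11, the proteasome subunit of cortical epithelium, ran from 4.36 to 6.70 on C20 (r 0.428, 0.398 without C17).

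Keratins and other epithelial genes differed in their r with DNTT. KRT18 was highest on P30 at 8.44 (r 0.73, 0.697 without C17), KRT8 on P30 at 9.88 (r 0.683, 0.673 without) and KRT5 on P32 at 10.33 (r 0.733, 0.681 without). KRT14 stayed between 6.69 and 8.02 (r 0.297, 0.088 without C17). TBATA, a gene of thymus and testis, was highest on C20 at 10.68, followed by P31 at 9.67 and C17 at 9.11 (r 0.706, 0.679 without C17). The adhesion molecule EPCAM was highest on C20 at 9.69 and had an r of 0.20 with and without C17. LY75 had a value on 10 arrays, was highest on C17 at 5.62 and was well above background on 0 of 8 treated arrays. AIRE was not found by name and is not analysed here.

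Lists of other cells were read beside the thymocyte genes. Between treatment groups limma called 0 of their genes after adjustment, and at an unadjusted p under 0.05 it called 1 effector gene (lower in treated animals), 1 cell cycle gene (higher), 3 testis genes (lower) and 1 hepatocyte gene (higher), where 3.24% of named genes passed. For each list, the deviation of a gene from its median over the animals was taken, and the median over the genes is given. The 5 thymocyte genes with all values stood at 4.98 on C17, 3.59 on P30, 3.29 on P32, 2.16 on C20 and 1.41 on P28. The 27 wider thymocyte genes stood at 2.16, 0.86, 0.96, 0.18 and 0.40 on the same animals. The 16 general leukocyte genes stood at 1.74, 0.77, 0.58, 0.59 and 0.26, with 13 of 16 highest on C17 and a median r with DNTT of 0.674 (0.535 without C17). Over all animals the leukocyte value ran from -0.60 to 1.74 in controls and from -0.77 to 0.77 in treated animals.

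Among these leukocyte genes PTPRC, the common antigen CD45, ran from 7.08 through 7.65 to 10.16 on C17 (r 0.799, 0.722 without C17). IKZF3, a lymphocyte transcription factor, reached 10.75 on C17 and had an r of 0.968 over 14 animals (0.962 without C17). WAS, which organises actin in blood cells, ran from 4.0 to 8.45 on C17 (r 0.792, 0.711 without C17). B-cell genes did not move with DNTT as a group: their 10 genes stood between -0.22 and 0.33 in controls and between -0.17 and 0.22 in treated animals, with a median r of -0.091 (-0.057 without C17) and 3 of 10 highest on C17. PAX5 had an r of -0.28 (-0.53 without C17), and CD79A had an r of 0.294, which turned to -0.13 without C17. The kinase BLK, which immature T cells can also make, reached 7.60 on C17 and had an r of 0.806 (0.733 without C17). Myeloid genes had a median r of 0.045 (-0.012 without C17), 1 of 15 highest on C17, and values from -0.58 to 0.54 in controls and from -0.64 to 0.45 in treated animals. Of the calgranulins of neutrophils, S100A9 was highest on P32 at 7.28 (r 0.371, 0.24 without C17), and S100A8 on C17 at 9.0 over 14 animals (r 0.583, 0.427 without C17).

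Markers of killer, effector and naive T cells differed in brightness. Of 19 on the array, 8 were well above background on 0 of 8 treated arrays, among them granzyme A (GZMA), which stayed between 1.26 and 3.23. NKG7 and CCL5 were well above background on 8 of 8. NKG7 stayed between 6.89 and 7.82 (r -0.056, 0.023 without C17), and CCL5 was highest on C20 at 10.51 (r 0.408, 0.439 without C17). Perforin (PRF1) reached 8.03 on C17 (r 0.702, 0.616 without C17). CCR7, the homing receptor of naive T cells, ran from 1.59 on C24 to 7.96 on C17, with 7.58 on P32 and 7.03 on P30 (r 0.806, 0.744 without C17). The 6 genes of this list with all values were highest on C20 at 0.97, with 0.47 on C17 and -0.028 on P30. Of these 6, 3 were highest on C17 (12.5% of named genes), and their median r with DNTT was 0.35 (0.251 without C17).

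Cell cycle genes had a median r of 0.566 with DNTT over 23 genes (0.538 without C17), with 8 highest on C17. Their median deviation was 0.97 on C20, 0.64 on C17 and 0.52 on P30, and over all animals it ran from -0.43 to 0.97 in controls and from -0.59 to 0.52 in treated animals. RRM2, a subunit of ribonucleotide reductase, was highest on C17 at 8.44 (r 0.808, 0.735 without C17). MCM5, of the replicative helicase, was highest on P30 at 10.98 (r 0.834, 0.804 without C17), whereas BUB1 (r 0.655, 0.605 without) and CCNB2 (r 0.492, 0.447 without), genes of mitosis, were highest on C20.

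Testis germ cell transcripts varied widely too, but in other animals. Their 8 genes with all values stood at 6.36 on C20, 5.43 on P31, 4.11 on C22, 4.08 on C24, 2.79 on C23 and 2.38 on P30, and at -0.69 on C17, 0 on P32 and -2.83 on P28. Protamine 1 (PRM1) had an r of 0.318 with DNTT (0.382 without C17), and so did the transition protein TNP1 (0.401 without C17). The group difference was negative for all 15 testis genes tested, with a median of -1.91 and no call. Of the animals high for DNTT, C20 and P30 thus lay above the median for these transcripts, C17 and P28 below it, and the part of this in the thymocyte values of C20 and P30 was not tested. Without C20 and P31 together, the group difference remained without a call for all 8 thymocyte genes. Hepatocyte transcripts were highest on P26 at 1.24, an animal with DNTT near background, and had a median r of -0.19 (-0.20 without C17). The fibrinogen genes FGG, highest on P28 at 9.73 (r 0.084, 0.06 without C17), and FGA, highest on P26 at 8.86 (r -0.18, with no value on C17), were well above background on 3 and 2 of 8 treated arrays.

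The median deviation over 17 skeletal muscle genes ran from -0.20 to 0.14 in controls and from -0.28 to 0.082 in treated animals. Single genes varied more, with the fast troponin TNNT3 between 11.57 on P32 and 16.81 on P30 (r 0.023, 0.058 without C17) and the calcium store protein CASQ1 between 1.05 on C20 and 5.58 on P26 (r -0.029, -0.22 without C17). On C17 the median was -0.20 and 4 of 17 were lowest there, where 10.5% of named genes had their lowest value. Among those 4 were the fast myosin MYH1 at 16.25 and the calcium release channel RYR1 at 12.96. The median r with DNTT was -0.27 (-0.17 without C17).

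**Figure D5:**
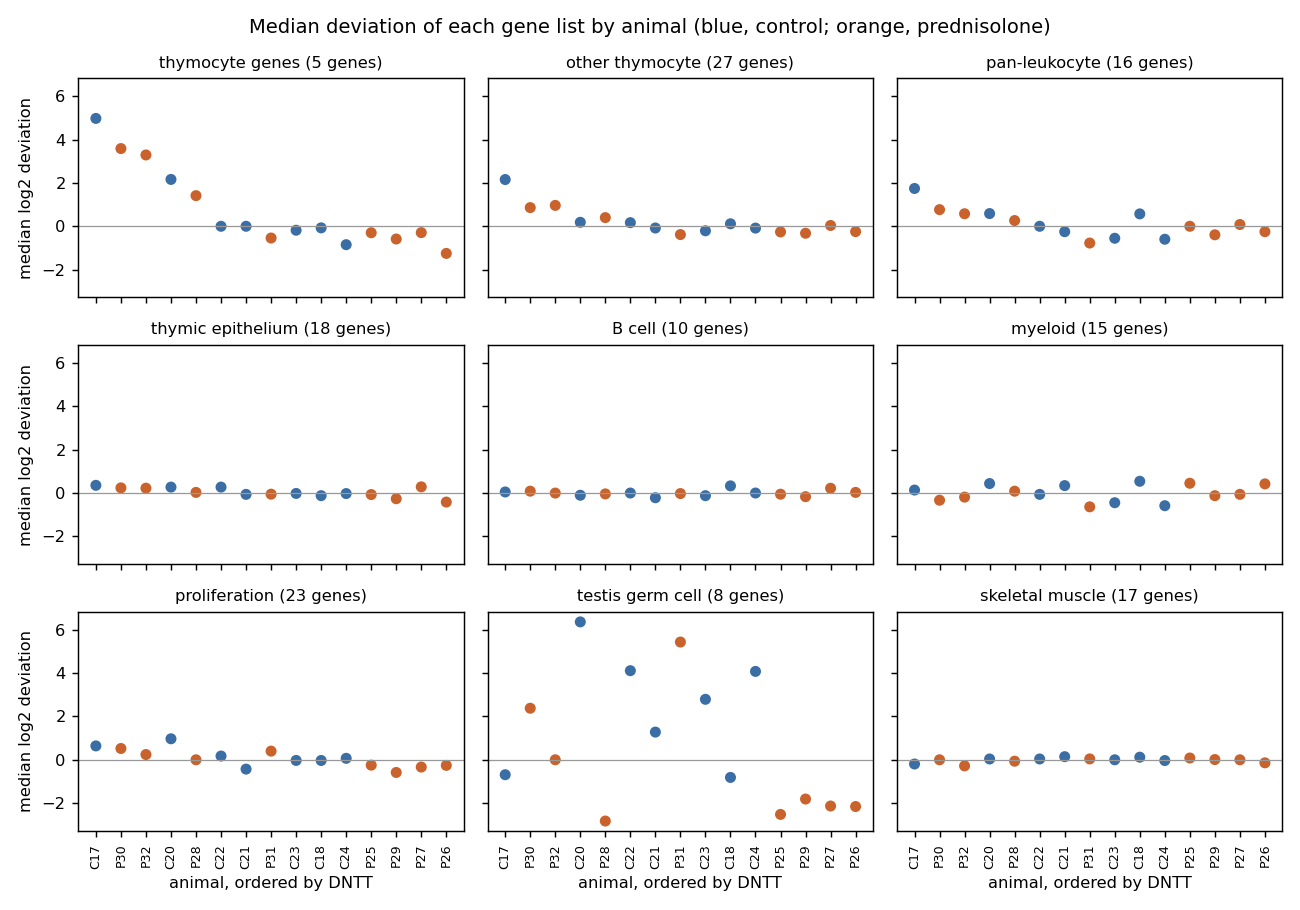
Median log2 deviation over the genes of each list in each animal (vertical axes), with animals ordered by DNTT from left to right, controls in blue and prednisolone animals in orange. The thymocyte panel falls from 4.98 on C17 to 1.41 on P28 and stays at or below 0 to the right of it, and the testis panel follows another order with its highest value on C20.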

How the data were processed

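The members and the gene lists were chosen with earlier results of these data known. The deposited table gives an intensity for every spot of each array. Per the series' design text, slides were scanned at 2 sensitivities and Feature Extraction gave a background-subtracted, detrended signal; per the file headers its version was 9.5.1.1, and the submitters' processing notes name R 2.11.1. How the authors put the arrays on a common scale is not stated in any source used here. The authors' scanner files of the 8 treated arrays gave detection flags and the processed intensity, which correlated with the deposited table at r from 0.999789 to 0.999991 across spots. Per the file headers, the scanner software also gave each spot a p-value against background, which was not used. On the treated arrays, empty cells were spots the scanner software had not found. For the control arrays this was not checked.

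Log2 values were shifted to a common 75th percentile over 14324 probes and spots of a probe averaged. Before the shift the percentiles lay between 10.56 and 10.76. Probes were named through gene name, gene identifier, accession or description and a RefSeq table of assembly ARS-UCD2.0 (17100 of 21475 probes). A gene was read from its brightest probe. Probes with at least 3 values per group were fitted with limma 3.58.1 in R 4.3.3 without trend, after tests on simulated data, at an adjusted p of 0.05. The number of arrays limits the precision. P-values measure the spread between animals, 1 array each.

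Genes named are the thymocyte genes and the 12 other named genes with a value on all arrays that had the highest Pearson r with DNTT. Also named are the most variable genes of each list with values on at least 12 arrays (6 thymocyte, 4 thymic epithelium, 2 of each further list). Others were chosen after their values were seen. Alternatives were other scalings, filters, weights, tests and left-out arrays. A search of promoters for motifs was planned but not run, since no sequences were used here.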

Additional observations from a re-analysis of the deposited data

Results flagged for a closer look

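Within each treatment group, 41 genes were checked for a single animal far from the rest, which gave 82 groups of values, and 6 were marked. Chance marks about 1 in 20 such groups when the genes are independent and not chosen by their levels. Many of these genes were chosen by their levels, and they share arrays, so the 6 cannot be set against that rate. Among the thymocyte genes, C17 stood far above the other controls for CD3G (11.02, the nearest control at 7.67), LCK (6.95, nearest 4.62) and CCL25 (9.85, nearest 7.31). DNTT, CD3D, CD3E and CD8A were highest on C17 as well but were not marked, because C20 or C22 lay between C17 and the rest.

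In treated animals P31 stood above the others for the epithelial gene EPCAM (9.44, nearest 7.07) and for CTLA4, an inhibitory receptor of T cells (4.53, nearest 2.57). P31 had DNTT at 6.02 and was not among the 5 animals highest for it. In controls C23 stood above the others for CXCR5, the homing receptor of B cells and follicular T cells (7.00, nearest 3.67), while its DNTT was 5.83.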

How the results depend on the processing

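None of the thymocyte genes was called in any alternative run for it (24, or 23 for RAG1, CD3D and LCK, which lack values on some arrays), with limma or Wilcoxon adjusted p between 0.805 and 1. The number of probes called was 0, ranged from 0 to 1 when 1 animal was left out (1 without C23 and 1 without P31), and was 1 without C20 and P31. The DNTT difference stayed negative in 24 alternatives and that of CD3D in 23. With array weights the difference became 0.055 for RAG1, 0.42 for CD3E and 0.23 for CD8A. With the exact Wilcoxon test, read on its own estimate of the shift, it became 0.082 for RAG1 and -0.035 for CD3G. Without C20 and P31 it was 0.22 for CD3E and 0.095 for CD8A, with empty cells at the 1st percentile -0.39 for LCK, and on values as deposited -0.0036 for CCL25. Leaving out 1 animal gave differences from -2.46 to -0.44 for DNTT, -0.48 to 0.014 for RAG1, -1.32 to -0.44 for CD3D, -0.57 to 0.47 for CD3E, -0.38 to 0.73 for CD3G, -0.77 to 0.41 for CD8A, 0.26 to 0.97 for LCK and -0.29 to 0.45 for CCL25. The highest of each range came without C17, and the lowest without P30, or for RAG1 without C23. The 16 probes with r above 0.9 became 4 with Spearman's rho and 4 without C17 and P30, and from 7 to 25 with 1 animal left out. Beyond the left-out animals the cause was not tested. A mean over probes was not run, since each gene had 1 probe. No paired analysis was possible because the animal numbers of the groups are not shared. RAG1, CD3D and the low DNTT values lay near background, which limits what they show.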
